A study of Papio hamadryas with 14 samples.

Results

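Whole fetal kidneys of the baboon Papio hamadryas at 90 days of gestation (90dG, 3 arrays) were compared with kidneys at 60 days of gestation (60dG, 2 arrays), the youngest stage of the series. These 5 arrays were chosen by their stage labels from the 14 of the series, which also holds 3 arrays each at 125 and 160 days and 3 adult arrays. The animals carried no treatment or genetic change according to the labels, and the arrays of a stage are described as biological replicates, with no sex or litter given. Total RNA was labelled as cRNA and hybridised to a human array, so that each value is the signal of human probes on baboon RNA. Of 9580 genes with a probe set of their own, 5278 had a mean signal above the median of all probe sets over the 11 fetal arrays and were tested. A gene was called at an adjusted p of limma's moderated test below 0.05, and differences are given on the scale of log2(signal + 16), 90dG minus 60dG, with their standard error.

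The mammalian kidney forms new nephrons in its outer zone from a pool of progenitor cells that condense around the tips of the branching ureteric bud. Older nephrons, deeper in the organ, meanwhile mature into glomeruli, proximal tubules, loops and distal segments, and the proximal tubule acquires a brush border with the transporters and peptidases that recover filtered solutes. Nephron progenitors, patterned tubules, stroma and vessels therefore lie side by side in RNA of a whole kidney, and fewer cells of a type cannot be told apart from less RNA per cell in such samples. PAX8, a transcription factor of the nephron lineage, had high signals on all 5 arrays. They were 2350 and 2247 at 60dG and 2940, 3543 and 3521 at 90dG. Some other kidney genes had far lower signals, and SIX2, CITED1 and SLC22A6 did not reach the mean signal needed for testing.

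Several of the 5 arrays stood apart from the rest. Replicates 2 and 3 of 90dG had GAPDH 3'/5' ratios of 2.46 and 3.43, where a higher ratio means more signal from the 3' than from the 5' end of the control transcript, and which is read as a measure of RNA or cDNA length. Replicate 1 of 90dG had 1.78, both 60dG arrays had 1.91 and 1.72, and the 6 later fetal arrays lay between 1.62 and 1.99. The ACTB ratios were also highest on these arrays, with 1.25, 1.93 and 3.03 on 90dG replicates 1, 2 and 3 against 1.50 and 1.27 at 60dG. Replicate 1, the 90dG array with the usual ratios, had the lowest spike-in signal of all, with a geometric mean of 942 over 9 control probe sets against 1786 and 2184 on the other 90dG arrays and at least 2248 elsewhere.

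Both 60dG arrays also differed from one another, in genes outside the tested set and in tested genes such as RPS4Y1. On replicate 2 of 60dG, CYP17A1, a steroid hydroxylase of the adrenal cortex and gonads, had a signal of 4960, against 8.7 on replicate 1 and 183, 66.0 and 32.9 at 90dG. STAR, which delivers cholesterol for steroid synthesis, had 1097 on that array and at most 13.3 on any other fetal array. CYP11A1 and CYP11B1, further enzymes of steroid synthesis, had 728 and 640 there, and at most 65.5 and 112 elsewhere. The summed signal of the 11 adrenal markers on the array was 8221 on 60dG replicate 2, 507 on replicate 1 and between 585 and 757 at 90dG. None of these 11 markers passed the filter on mean signal, and their part in the tested differences was not tested; the counts of called genes and of most gene lists are therefore also given without that array. XIST, the RNA of the inactive X chromosome, had a signal of 4589 on 60dG replicate 1 and at most 139 on the other 10 fetal arrays. RPS4Y1, a Y-linked ribosomal protein gene, had 90.2 on 60dG replicate 1 and 3332 to 5562 on the others, so one 60dG kidney carried the female pattern of these genes and all 3 90dG kidneys the male one. RPS4Y1 had no call (2.78 ± 0.98, adjusted p = 0.0935), and UTY, another Y-linked gene, had 223 and 320 at 60dG against 165, 133 and 108 (-0.92 ± 0.24, adjusted p = 0.0281) on a probe set that can bind related transcripts. A part of sex in other genes was not tested beyond leaving out that array.

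**Figure D1:**
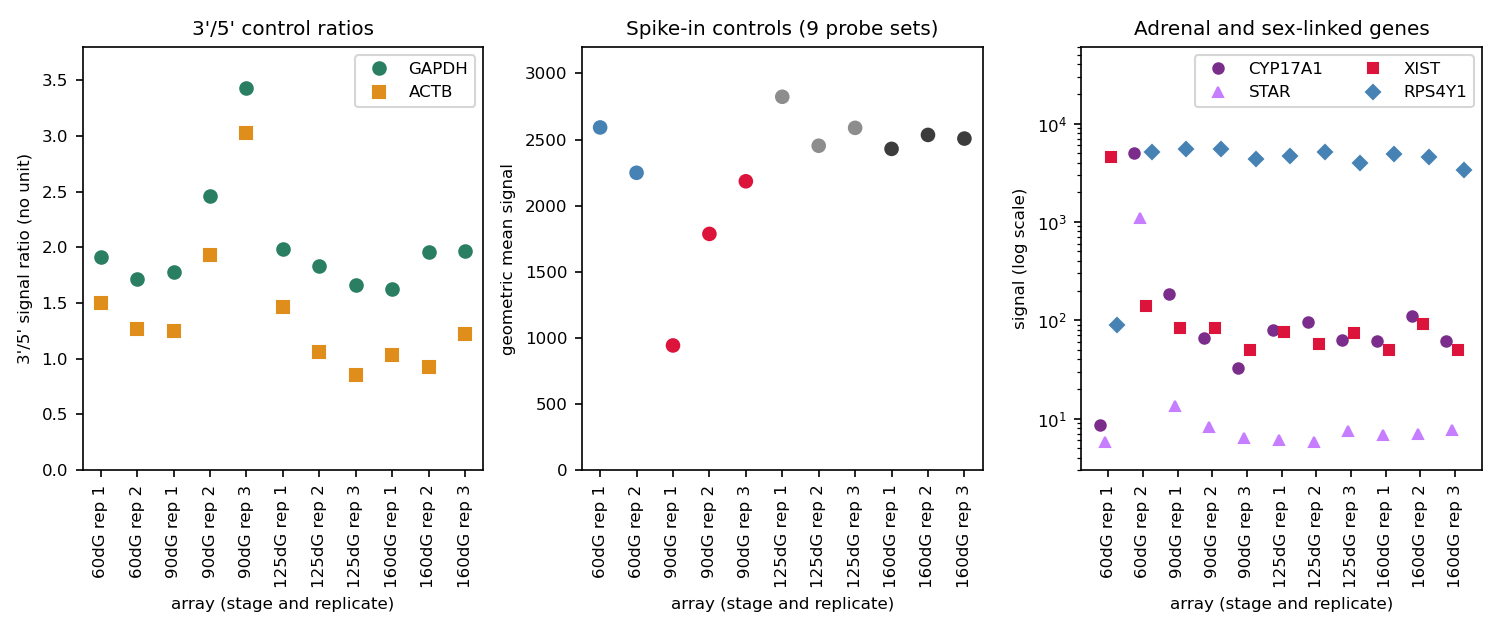
Control and marker values on each of the 11 fetal arrays (x axis: stage and replicate). Left, 3'/5' signal ratios of GAPDH and ACTB; centre, geometric mean signal of 9 spike-in probe sets (colour marks the stage); right, signal of CYP17A1, STAR, XIST and RPS4Y1 on a log axis. The ratios are highest on 90dG replicates 2 and 3, the spike-in signal is lowest on 90dG replicate 1, CYP17A1 and STAR are high on 60dG replicate 2, and XIST is high with RPS4Y1 low on 60dG replicate 1.

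Proximal tubule transporters and enzymes, class I and class II histocompatibility genes, immediate early genes and matrix genes were among the genes higher at 90dG. Condensin subunits, RNA-binding proteins and HMGA2, a chromatin protein of embryonic and progenitor cells, were among those lower. In all, 481 of 5278 genes were called, or 9.11%. Of these, 292 were higher at 90dG (5.53% of the genes tested) and 189 were lower (3.58%). The 60dG and 90dG signals of every called gene were free of overlap, against a background of 24.2% of tested genes whose 90dG arrays all lay above both 60dG arrays and 18% whose 90dG arrays all lay below. The median over all tested genes was 0.04.

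Each call was then set against the raised 3'/5' ratios in 2 ways. When the GAPDH ratio (log2) entered the model as a covariate, 130 genes were called higher (2.46%) and 87 lower (1.65%), and 116 of the 292 and 59 of the 189 first called kept their call. With 90dG replicate 1, the array of usual ratio, as the only 90dG array, 43 genes were called higher (0.815%) and 51 lower (0.966%), with 40 of the 292 and 28 of the 189 among them. Both checks were passed by 39 of the genes called higher and 27 of those called lower. The 2 checks are not independent of one another. Within stages the GAPDH ratio varied mainly at 90dG, so the fit with the covariate also leans on 90dG replicate 1. In the fit with replicate 1 alone, as in the fits below without a 60dG array, a stage is left with 1 array, which is assumed to vary like the arrays of the other stages. The median difference of the genes called higher was 0.93 on replicate 1, 1.02 on replicate 2 and 1.06 on replicate 3; that of the genes called lower was -0.88, -0.87 and -1.03.

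The counts moved with each array left out. Without 60dG replicate 1, the array with high XIST, 68 genes were called higher (1.29%) and 13 lower (0.246%). Without 60dG replicate 2, the array with high adrenal markers, 117 were called higher (2.22%) and 47 lower (0.89%). Without 90dG replicate 1, 2 or 3, the genes called higher numbered 310, 177 and 167, and those called lower 271, 121 and 75. Of the genes called with all arrays, 38 of the 292 and 9 of the 189 were called whichever of the 5 arrays was left out, and 25 and 7 of those also passed both checks of the ratio. These 32 genes are marked below as called in every check.

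**Figure D2:**
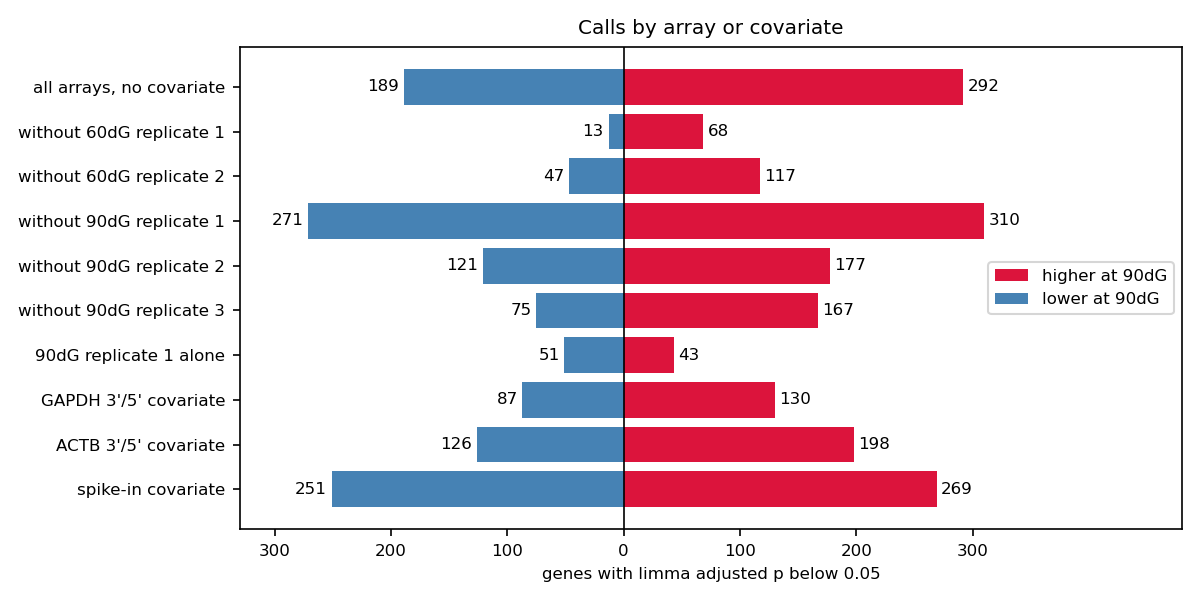
Number of genes with a limma adjusted p below 0.05 (x axis), higher at 90dG to the right and lower to the left, for all arrays, without each of the 5 arrays, with 90dG replicate 1 as the only 90dG array, and with each covariate. The fewest calls of genes lower at 90dG, 13, come without 60dG replicate 1.

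Genes of proximal tubule uptake formed the list with the highest median. Of 29 tested genes for apical transport and the brush border (49 on the array), 18 rose and none fell, and their median was 1.09 against 0.04 over all genes. The medians on 90dG replicates 1, 2 and 3 were 1.10, 1.15 and 0.93. Of the 29, 13 rose with the GAPDH covariate, 8 with replicate 1 alone, 7 without 60dG replicate 1 and 13 without 60dG replicate 2.

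PDZK1IP1, a membrane protein of proximal tubule cells, had signals of 103 and 174 at 60dG and of 1571, 1464 and 1237 at 90dG, a rise of 3.25 ± 0.28 (SE; adjusted p = 3.09e-05). All 3 90dG arrays lay far above both 60dG arrays, and the highest of them was replicate 1. AQP1, the water channel of the proximal tubule and descending thin limb, had 259 and 300 at 60dG and 2156, 2249 and 1782 at 90dG, a rise of 2.81 ± 0.23 (adjusted p = 3.09e-05). A second probe set for AQP1 gave a difference of 0.41, so the size rests on the brighter one. SLC22A2, the organic cation transporter OCT2, had 77.4 and 88.9 at 60dG and 514, 520 and 452 at 90dG, a rise of 2.37 ± 0.29 (adjusted p = 0.00047). XPNPEP2, a brush border aminopeptidase, had 161 and 144 at 60dG and 646, 840 and 982 at 90dG, a rise of 2.30 ± 0.25 (adjusted p = 0.000215), and its other probe set gave 2.41. These 4 genes were called in every check.

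At the later stages these genes stayed near or above the level of 90dG. The mean signal of PDZK1IP1 was 139 ± 50.0 (SD, n = 2) at 60dG, 1424 ± 170 (n = 3) at 90dG, 1505 ± 373 (n = 3) at 125dG and 1819 ± 502 (n = 3) at 160dG. SLC22A2 followed the same course, from 83.2 ± 8.13 to 495 ± 37.7, 560 ± 38.5 and 731 ± 371. AQP1 went from 280 ± 28.4 to 2063 ± 247, 1879 ± 248 and 2586 ± 794, with spreads at the 3 later stages that overlap.

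Of 3 genes of endocytosis in these cells, DAB2 and LRP2 rose and CUBN had no call. DAB2, the adaptor that couples megalin to clathrin, had 738 and 1402 at 60dG and 3115, 3560 and 3078 at 90dG, a rise of 1.66 ± 0.24 (adjusted p = 0.00178), called in every check although its 3 other probe sets gave 0.64 to 0.69. LRP2, which encodes megalin itself, had 684 and 921 at 60dG and 2619, 1782 and 1626 at 90dG, a rise of 1.29 ± 0.35 (adjusted p = 0.0333) that was called in none of the 7 checks (5 fits without an array, and 2 checks of the ratio). CUBN, its partner cubilin, had 117 and 264 against 136, 459 and 286 and no call (0.54 ± 0.48, adjusted p = 0.514). Values of CUBN overlapped between the stages, whereas those of DAB2 and LRP2 did not.

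Solute carriers and peptidases made up most of the other rises of the list. SLC5A2, the glucose transporter SGLT2, had 113 and 153 at 60dG and 416, 351 and 386 at 90dG (1.44 ± 0.23, adjusted p = 0.00315), called in every check. ANPEP, aminopeptidase N of the brush border, had 115 and 190 at 60dG and 525, 516 and 485 at 90dG (1.68 ± 0.26, adjusted p = 0.00272), also called in every check. Among carriers that did not pass every check, SLC34A1, the sodium-phosphate cotransporter, rose by 1.11 ± 0.22 (adjusted p = 0.0102), and PDZK1, a scaffold for such carriers, by 1.13 ± 0.21 (adjusted p = 0.00706). MME, or neprilysin, rose by 0.87 ± 0.20 (adjusted p = 0.0165), a call that held in 2 of the 7 checks. The amino acid transporter subunits SLC7A8, SLC7A7 and SLC7A9 rose by 1.35, 1.09 and 0.97. SLC22A6, the organic anion transporter OAT1, was below the filter, with 5.1 and 14.8 at 60dG and 17.8, 131 and 107 at 90dG, and was not tested.

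Metabolic enzymes of the proximal tubule showed a similar median. Of 24 tested genes (38 on the array), 11 rose and none fell, and the median was 1.07. The number was 9 with the covariate, 3 with replicate 1 alone, 6 without 60dG replicate 1 and 7 without 60dG replicate 2. At an unadjusted p below 0.05, no tested gene of these 2 lists fell. GPX3, the plasma glutathione peroxidase that the proximal tubule secretes, had 272 and 929 at 60dG and 4939, 7079 and 5247 at 90dG, a rise of 3.45 ± 0.39 (adjusted p = 0.000304). In the fit of all arrays this was the largest rise of a called gene, with CXCL14 nearly level at 3.44 ± 0.38. GPX3 was called in every check, with a smallest difference of 2.59, and its second probe set gave 2.35. PCK1, the key enzyme of gluconeogenesis, had 127 and 108 at 60dG and 392, 587 and 451 at 90dG (1.87 ± 0.22, adjusted p = 0.00047), and was called in every check. Its mean then stood at 235 ± 16.3 (SD, n = 3) at 125dG and 483 ± 88.8 (n = 3) at 160dG, so the values of 90dG were not a step in a steady climb.

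Other enzymes of glucose and amino acid metabolism rose with less support. FBP1, fructose bisphosphatase, had 231 and 348 at 60dG and 1102, 1038 and 880 at 90dG (1.76 ± 0.31, adjusted p = 0.00475) and was called in 5 of the 7 checks. ASS1, which makes argininosuccinate for arginine synthesis, had 431 and 427 at 60dG and 1256, 2012 and 1459 at 90dG (1.81 ± 0.30, adjusted p = 0.00377) and was called in 6, missing only with replicate 1 alone. GATM, which makes the precursor of creatine, had 307 and 224 at 60dG and 958, 1832 and 472 at 90dG, and missed the threshold despite a difference of 1.78 ± 0.53 (adjusted p = 0.0507). Its 90dG arrays did not overlap with 60dG but spread widely among themselves.

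Of 30 tested genes of drug and xenobiotic metabolism, 8 rose and none fell (median 0.62); 7 rose with the covariate, 2 with replicate 1 alone, 4 without 60dG replicate 1 and 7 without 60dG replicate 2. CYP4A11, a fatty acid hydroxylase of kidney and liver, had 93.8 and 92.5 at 60dG and 535, 656 and 450 at 90dG, a rise of 2.35 ± 0.23 (adjusted p = 0.000135), called in every check. UGT2B28, a glucuronosyltransferase, had 10.6 and 150 at 60dG and 543, 612 and 550 at 90dG (3.13 ± 0.52, adjusted p = 0.00342), with mean signals of 927 and 1408 at 125dG and 160dG. Its probe set, like that of CYP4A11, is of a type that can bind related transcripts, so neither can be told apart here from close family members. CES1, a carboxylesterase also read by such a probe set, had 51.8 and 13.1 at 60dG and 171, 370 and 203 at 90dG (2.50 ± 0.39, adjusted p = 0.00315). The last 2 genes lost their call only with replicate 1 alone.

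Of 33 tested genes of fatty acid oxidation and the peroxisome, 6 rose and none fell (median 0.37); 5 rose with the covariate and 1 with replicate 1 alone, 1 without 60dG replicate 1 and 3 without 60dG replicate 2. SLC27A2, a fatty acid transporter and acyl-CoA synthetase of the proximal tubule, had 401 and 484 at 60dG and 1425, 1072 and 1018 at 90dG (1.36 ± 0.19, adjusted p = 0.00152), called in every check. ECI1, an isomerase of mitochondrial fatty acid oxidation, had 153 and 109 at 60dG and 219, 394 and 421 at 90dG. Its difference went from 1.26 ± 0.32 (adjusted p = 0.0266) to 0.78 with the covariate, and the lowest 90dG array was the one of usual ratio. Among 18 tested transcription factors and nuclear receptors of the proximal tubule 2 rose, CEBPA by 1.07 ± 0.23 (adjusted p = 0.0137) and TFEC by 0.91 ± 0.25 (adjusted p = 0.0402), and neither was called when a 60dG array was left out.

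**Figure D3:**
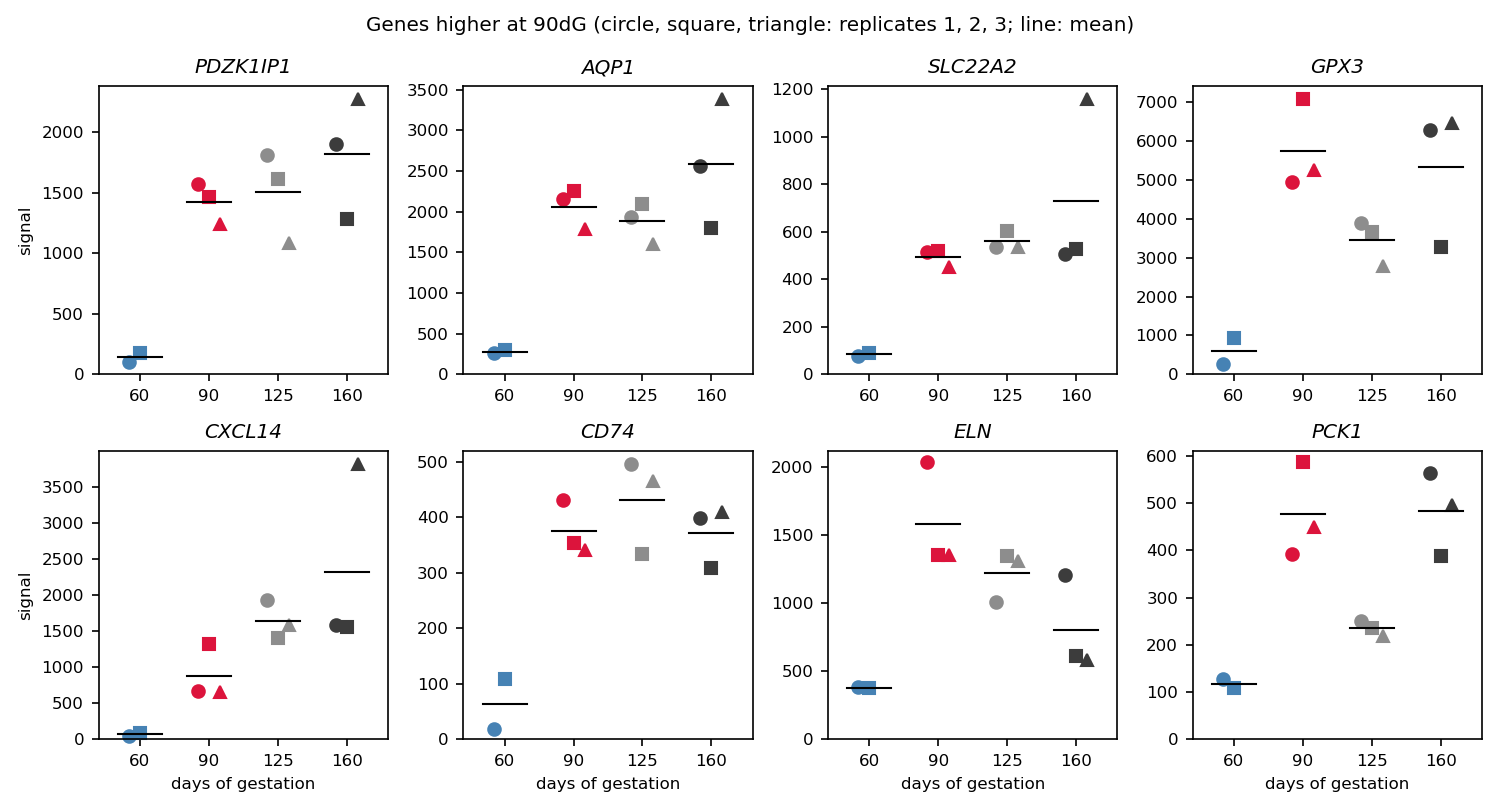
Signal (y axis, linear from 0) at 60, 90, 125 and 160 days of gestation (x axis) of PDZK1IP1, AQP1, SLC22A2, GPX3, CXCL14, CD74, ELN and PCK1. Each point is an array, with shape marking the replicate number, and the line is the stage mean. In all 8 genes the 3 90dG arrays lie above both 60dG arrays, and 90dG replicate 1 (circle) lies among or above the other 90dG arrays in most of them.

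The lists of later nephron segments had lower medians. Of 17 tested genes of the thick limb and distal tubule 3 rose and none fell (median 0.39), and the number was 3 with the covariate, 1 without 60dG replicate 1, and 0 with replicate 1 alone or without 60dG replicate 2. ATP1B1, a subunit of the sodium pump, had 3510 and 2840 at 60dG and 5519, 5909 and 5686 at 90dG (0.85 ± 0.15, adjusted p = 0.00542). SLC12A1, the sodium-potassium-chloride cotransporter that defines the thick limb, had 553 and 578 at 60dG and 506, 723 and 568 at 90dG, which overlap (0.07 ± 0.27, adjusted p = 0.906). SLC12A3, its distal convoluted tubule relative, was below the filter. Of 18 collecting duct genes 4 rose and none fell (median 0.16); 2 rose with each 60dG array left out in turn, 1 with replicate 1 alone and 2 with the covariate. CDH16, the kidney cadherin of tubule epithelium, had 114 and 147 at 60dG and 498, 408 and 261 at 90dG (1.43 ± 0.29, adjusted p = 0.0107), highest on the array of usual ratio. CA2, the cytosolic carbonic anhydrase, had 561 and 758 at 60dG and 1183, 1872 and 1734 at 90dG (1.24 ± 0.26, adjusted p = 0.0115), a call lost in both checks of the ratio (0.93 and 0.84). AQP2, the vasopressin-regulated water channel, had 294 and 347 against 370, 235 and 307 and no call (-0.09 ± 0.24, adjusted p = 0.851).

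Of 26 tested podocyte and glomerulus genes 4 rose and none fell (median 0.17); 2 rose with the covariate, 1 with replicate 1 alone, 2 without 60dG replicate 1 and 0 without 60dG replicate 2. PTGDS, a prostaglandin D synthase, had 302 and 217 at 60dG and 882, 672 and 677 at 90dG (1.47 ± 0.27, adjusted p = 0.00611). The defining podocyte genes had no call: NPHS1, or nephrin, had 188 and 194 against 211, 71.7 and 228, and PODXL, or podocalyxin, had 318 and 341 against 353, 317 and 416. WT1, the transcription factor of progenitors and podocytes, had 954 and 872 at 60dG and 1197, 457 and 445 at 90dG. The 2 low values of WT1 were those of the arrays with raised ratios: its difference was -0.53 ± 0.32 (adjusted p = 0.321) in the fit of all arrays, 0.01 with the covariate and 0.39 with replicate 1 alone. Its other probe set gave 0.11.

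Among genes of nephron progenitors, 2 of 22 tested fell and none rose (median -0.33); with the covariate 2 fell, and 1 each with replicate 1 alone, without 60dG replicate 1 and without 60dG replicate 2. HMGA2 had 5496 and 4817 at 60dG and 1970, 2375 and 2346 at 90dG, a difference of -1.21 ± 0.17 (adjusted p = 0.00178), called in every check. Its mean fell from 5156 ± 481 (SD, n = 2) to 2230 ± 226 (n = 3), and stood at 767 ± 38.5 (n = 3) at 125dG and 368 ± 56.4 (n = 3) at 160dG. IGF2BP3, a fetal RNA-binding protein that binds IGF2 mRNA, had 902 and 816 at 60dG and 361, 383 and 407 at 90dG (-1.13 ± 0.26, adjusted p = 0.0177), with the 3 90dG arrays close together. The call of IGF2BP3 held in 4 of the 7 checks, and in neither fit without a 60dG array. The classical factors of the progenitor pool had no call: EYA1 had 468 and 490 against 264, 395 and 312 (-0.56 ± 0.24, adjusted p = 0.16), SALL1 1498 and 1420 against 1419, 1232 and 958 (-0.29 ± 0.19, adjusted p = 0.354) and PAX2 651 and 512 against 562, 457 and 558 (-0.14 ± 0.20, adjusted p = 0.706). SIX2 and CITED1, further markers of the pool, were below the filter. SIX2 had 215 and 194 at 60dG and 182, 212 and 143 at 90dG, which overlap, and CITED1 had 201 and 174 against 47.8, 105 and 144, which do not.

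Of 22 tested genes of early nephrons and tubule patterning 2 rose and none fell, and of 18 ureteric bud genes 2 rose and none fell; both lists name the same pair, EMX2 (0.88 ± 0.20, adjusted p = 0.0175) and PAX8 (0.53 ± 0.16, adjusted p = 0.0485). EMX2, a homeobox gene of the bud and early epithelia, had 1672 and 1365 at 60dG and 2910, 2343 and 3212 at 90dG. Neither kept its call when a 60dG array was left out, with replicate 1 alone or with the covariate. The differences with the covariate and with replicate 1 alone were 0.87 and 0.94 for EMX2, and 0.42 and 0.35 for PAX8. With the most variable probe set in place of the brightest the difference of PAX8 was -0.73. LHX1, needed for the renal vesicle, had 212 and 236 against 182, 241 and 211, and RET, the receptor of the bud tip, had 252 and 263 against 412, 252 and 297; both overlap. Values of WNT11, a ligand of the bud tip, lay below the filter, at 6.5 and 6.0 against 12.4, 12.2 and 51.8.

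Over all tested genes 5.53% were higher, 3.58% were lower, and 2.46% were higher with the covariate. Genes of stroma and extracellular matrix likewise rose more often than they fell. Of 53 tested 8 rose and 1 fell (median 0.24); 3 rose without 60dG replicate 1, 1 without 60dG replicate 2, 1 with replicate 1 alone and 2 with the covariate. ELN, which encodes elastin, had 380 and 379 at 60dG and 2040, 1355 and 1354 at 90dG, a rise of 1.99 ± 0.28 (adjusted p = 0.00178), called in every check, although its second probe set gave 0.01. COL6A3, a chain of collagen VI, had 1846 and 1921 at 60dG and 3142, 3596 and 4024 at 90dG (0.92 ± 0.20, adjusted p = 0.0136); its 90dG values followed the order of the ratio, and both checks of the ratio lost the call. PDGFRA, the growth factor receptor of stromal cells, rose by 0.66 ± 0.14 (adjusted p = 0.0142), a call that held in 4 of the 7 checks. COL1A1, a chain of collagen I, rose by 0.63 ± 0.14 (adjusted p = 0.0177), but its 2 other probe sets gave -0.61 and 0.99. Its call was lost in both checks of the ratio, although the difference stayed at 0.62 with the covariate and 0.65 with replicate 1 alone. FOXD1, the transcription factor of cortical stromal progenitors, was the member that fell: 873 and 825 at 60dG against 553, 468 and 398 at 90dG (-0.84 ± 0.23, adjusted p = 0.0402). Its call was lost in both checks of the ratio (-0.68 and -0.61) and when a 60dG array was left out. TCF21, a factor of stroma and podocytes, had no call (0.39 ± 0.15, adjusted p = 0.126).

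Of 22 tested endothelial genes 4 rose and none fell (median 0.33), and of these AQP1 is also a tubule gene. The number was 2 without 60dG replicate 1, 2 without 60dG replicate 2, 2 with the covariate and 1 with replicate 1 alone. MMRN2, an endothelial matrix protein, had 117 and 143 at 60dG and 309, 306 and 252 at 90dG (1.06 ± 0.25, adjusted p = 0.0193), a call that held in 3 of the 7 checks. PECAM1 and KDR, general endothelial markers, had no call (0.60 ± 0.23, adjusted p = 0.119, and 0.33 ± 0.21, adjusted p = 0.352). Of 21 genes of mural, mesangial and renin cells 4 rose and none fell (median 0.30); 1 rose without 60dG replicate 2, 1 with the covariate, and 0 without 60dG replicate 1 or with replicate 1 alone. MYLK, the kinase of myosin light chain, had 431 and 346 at 60dG and 790, 700 and 1202 at 90dG (1.14 ± 0.29, adjusted p = 0.0281), highest on the array with the highest ratio and not called in either check of it. SMTN, a smooth muscle protein, rose by 1.03 ± 0.22 (adjusted p = 0.014), but its most variable probe set gave -0.37.

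Histocompatibility genes rose together. Of 21 tested genes of this and the interferon list 7 rose and none fell (median 0.67), and all 7 are histocompatibility genes or their chaperone. With the covariate 7 rose, with replicate 1 alone 3, without 60dG replicate 1 4 and without 60dG replicate 2 7. CD74, the invariant chain of class II, had 17.3 and 108 at 60dG and 431, 353 and 342 at 90dG, a rise of 2.60 ± 0.40 (adjusted p = 0.00272). HLA-DRA, the class II alpha chain, had 41.2 and 107 at 60dG and 503, 404 and 298 at 90dG (2.29 ± 0.32, adjusted p = 0.00152). Both were called in every check and were highest on the array of usual ratio, and their means at 125dG, 432 ± 86.1 and 443 ± 112 (SD, n = 3), stayed near those of 90dG. HLA-B, a class I heavy chain, had 1394 and 1886 at 60dG and 4243, 6731 and 5719 at 90dG (1.74 ± 0.25, adjusted p = 0.00178). HLA-B, HLA-C, HLA-DMA, HLA-DRB1 and HLA-F were read by probe sets that can bind related genes, on RNA of another species. They are therefore uncertain as single genes. Of 36 macrophage and leukocyte genes on the array 7 were tested and none was called by limma (median 0.21, with 1 at an unadjusted p below 0.05), and the summed signal of the 36 was 3183 and 3583 at 60dG and 4301, 4385 and 4440 at 90dG. The part of leukocytes in the class II values was not tested.

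CXCL14, a chemokine made by epithelia, had 46.0 and 82.4 at 60dG and 666, 1311 and 659 at 90dG, a rise of 3.44 ± 0.38 (adjusted p = 0.000215), called in every check. Its mean was 1637 ± 269 (SD, n = 3) at 125dG and 2315 ± 1293 (n = 3) at 160dG, where a single array reached 3808. Of 5 tested chemokine genes it was the only one called. In the complement list 2 of 11 tested genes rose, CFI by 1.25 ± 0.29 (adjusted p = 0.0179) and C7 by 1.16 ± 0.27 (adjusted p = 0.0175), and CD46, a membrane regulator of complement, fell (-0.97 ± 0.24, adjusted p = 0.0241). The call of CD46 held in 1 of the 7 checks: its signals of 630 and 643 at 60dG and 411, 320 and 244 at 90dG followed the order of the ratio, both checks of the ratio lost it (-0.73 and -0.61), and its other probe set gave 0.17. CFI and C7 held in 4 and 5 checks, and none of the 3 genes was called without 60dG replicate 1.

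Of 26 tested immediate early genes 6 rose and none fell (median 0.59); 2 rose without 60dG replicate 1, 4 without 60dG replicate 2, 2 with replicate 1 alone and 3 with the covariate. EGR1, a zinc finger factor among the first to be transcribed after a stimulus, had 399 and 387 at 60dG and 799, 683 and 3147 at 90dG (1.57 ± 0.45, adjusted p = 0.0425). The highest value was on the array with the highest ratio, and the difference was 0.83 with the covariate. CCN1, a secreted matrix protein, had 291 and 302 at 60dG and 694, 777 and 1391 at 90dG (1.57 ± 0.25, adjusted p = 0.00315), and RHOB, a small GTPase, had 897 and 950 against 2063, 1603 and 2127 (1.04 ± 0.16, adjusted p = 0.00315). Both were called in every check. JUNB and ZFP36 rose by 1.10 ± 0.24 (adjusted p = 0.0159) and 1.27 ± 0.25 (adjusted p = 0.00971), and lost their calls in both checks of the ratio. CCN1, JUNB and ZFP36 were highest, like EGR1, on the array with the highest ratio, and the medians of the list were 0.47, 0.54 and 0.72 on replicates 1, 2 and 3.

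In the insulin-like growth factor list 5 of 16 tested genes rose and 2 fell (median 0.39). The rises numbered 1 without 60dG replicate 1, 2 without 60dG replicate 2, 1 with replicate 1 alone and 3 with the covariate; the falls numbered 1 in each of these fits but that with the covariate, which gave 2. IGFBP7, a secreted binding protein, had 4004 and 3721 at 60dG and 6896, 8660 and 8409 at 90dG (1.04 ± 0.14, adjusted p = 0.000871), called in every check. IGFALS, which carries the growth factors in plasma, had 89.8 and 97.7 at 60dG and 285, 251 and 246 at 90dG (1.33 ± 0.26, adjusted p = 0.00941). The 2 that fell are HMGA2 and IGF2BP3, regulators of IGF2 that stand in the progenitor list too. Of 16 imprinted growth genes 2 rose and 2 fell; 1 fell without 60dG replicate 1, 1 with replicate 1 alone and 1 with the covariate, none rose in these fits, and no gene was called without 60dG replicate 2. PEG10, a retrotransposon-derived imprinted gene, fell most, although its other probe set gave only -0.94. It went from 3017 and 3808 at 60dG to 1661, 1115 and 586 at 90dG (-1.70 ± 0.31, adjusted p = 0.00542). Its values followed the order of the ratio on the 90dG arrays, and its difference was -1.12 with the covariate and -1.02 with replicate 1 alone, both called; it was not called without 60dG replicate 2.

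Cell division genes fell without exception among those called. Falls made up 3.58% of all tested genes, and 1.65% with the covariate. Of 28 tested genes of mitosis and the spindle 8 fell and none rose (median -0.61; -0.43, -0.69 and -0.62 on replicates 1, 2 and 3). With the covariate 5 fell, with replicate 1 alone 2, without 60dG replicate 1 4 and without 60dG replicate 2 3. SMC2 and SMC4 form the core of condensin, which compacts chromosomes for division. SMC4 had 883 and 1024 at 60dG and 345, 321 and 152 at 90dG (-1.82 ± 0.30, adjusted p = 0.00342), and SMC2 had 692 and 646 against 190, 255 and 157 (-1.69 ± 0.24, adjusted p = 0.00178). Both were called in every check, and SMC4 was lowest on the array with the highest ratio. At 125dG and 160dG the mean was 528 ± 120 and 325 ± 50.6 (SD, n = 3) for SMC4. For SMC2 it was 286 ± 60.3 and 203 ± 20.2, so both genes stayed below 60dG. CKS2, a subunit of cyclin-dependent kinases, had 1469 and 1326 at 60dG and 632, 470 and 585 at 90dG (-1.30 ± 0.21, adjusted p = 0.00333), lost only with replicate 1 alone. CDK1, the kinase that drives entry into mitosis, had 1282 and 2158 against 882, 691 and 754 (-1.09 ± 0.28, adjusted p = 0.0263). The call of CDK1 held in 2 of the 7 checks. Its difference was -0.72 without 60dG replicate 2, -1.05 with the covariate and -0.90 with replicate 1 alone, none of them called.

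The widely used proliferation markers had no call. MKI67 had 249 and 303 at 60dG and 269, 164 and 146 at 90dG (-0.52 ± 0.28, adjusted p = 0.264), and TOP2A had 620 and 449 against 489, 186 and 286 (-0.80 ± 0.39, adjusted p = 0.217). In both, the array of usual ratio lay within the range of 60dG, and the differences were -0.03 and -0.11 with that array alone. Of 38 tested genes of the G1/S transition and DNA replication 3 fell and none rose (median -0.32): RFC4, a clamp loader subunit (-1.30 ± 0.33, adjusted p = 0.0279), RRM2, a subunit of ribonucleotide reductase (-0.80 ± 0.24, adjusted p = 0.0499), and CDC7, a kinase that starts replication (-0.69 ± 0.18, adjusted p = 0.0288). With the covariate 2 fell, without 60dG replicate 2 1, and none without 60dG replicate 1 or with replicate 1 alone.

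The shares over all tested genes were 3.58% lower and 5.53% higher, with 1.65% lower under the covariate. RNA-binding and splicing proteins were a further group among the falls, with 8 of 66 tested lower and 1 higher (median -0.19). Without 60dG replicate 1 1 fell, without 60dG replicate 2 2, with replicate 1 alone 2 and with the covariate 3. TIA1, a regulator of splicing and stress granules, had 1472 and 1434 at 60dG and 523, 660 and 487 at 90dG (-1.37 ± 0.18, adjusted p = 0.000805), called in every check, and its 3 other probe sets gave -1.56 to -0.91. Its means at 125dG and 160dG were 1089 ± 128 and 1069 ± 30.2 (SD, n = 3), which places 90dG below both neighbours. Outside the list, EIF3A, a subunit of translation initiation factor 3, had 2050 and 1733 at 60dG and 880, 689 and 812 at 90dG (-1.24 ± 0.19, adjusted p = 0.00244). EIF3A was called in every check, and its 2 other probe sets gave -0.91 and -0.37. The mean of EIF3A was 794 ± 97.0 (SD, n = 3) at 90dG and higher later, with 1487 ± 285 at 125dG and 1221 ± 17.0 at 160dG. SRSF1, a splicing factor, had 3708 and 3041 against 2896, 1495 and 1062 (-1.01 ± 0.29, adjusted p = 0.047), and its difference was -0.44 with the covariate and -0.21 with replicate 1 alone. TIA1 and SRSF1 thus both count as lower, but only the values of SRSF1 followed the order of the ratio.

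Of 37 tested chaperones and folding enzymes of the endoplasmic reticulum 5 fell and 1 rose (median -0.03); without 60dG replicate 1 1 fell, without 60dG replicate 2 3, with replicate 1 alone 2 and with the covariate 2. HSP90B1, the chaperone GRP94, was read by a probe set that can bind related transcripts, and its other probe set gave -1.09. It had 1676 and 1583 at 60dG and 687, 412 and 164 at 90dG, a difference of -2.12 ± 0.39 (adjusted p = 0.00595). Its difference was -1.40 with the covariate and -1.23 with replicate 1 alone, both called, and it was not called without 60dG replicate 1. DNAJC10, a disulfide reductase of the same compartment, had 542 and 637 against 245, 205 and 84.1 (-1.75 ± 0.31, adjusted p = 0.00529) and was called in every check. The mean of DNAJC10 was 178 ± 83.7 (SD, n = 3) at 90dG, 553 ± 65.3 at 125dG and 481 ± 39.6 at 160dG. That of HSP90B1 was 421 ± 261, 1056 ± 160 and 945 ± 124, so both stood lower at 90dG than at the later stages. In both genes the array with the highest ratio was the lowest. The array of usual ratio lay below 60dG, as it did in all 189 genes called lower. Among 29 cytosolic heat shock proteins 2 fell, HSP90AA1 (-1.21 ± 0.31, adjusted p = 0.0285) and HSPH1 (-0.89 ± 0.23, adjusted p = 0.0315), and 1 rose, the small heat shock protein CRYAB (1.13 ± 0.18, adjusted p = 0.00333). No gene of this list fell with a 60dG array left out, with the covariate or with replicate 1 alone. HSP90AA1 had 6092 and 7893 at 60dG and 4257, 3929 and 1598 at 90dG, lowest on the array with the highest ratio, and its difference was -0.63 with the covariate and -0.70 with replicate 1 alone. HSPH1 was called in 1 of the 7 checks.

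**Figure D4:**
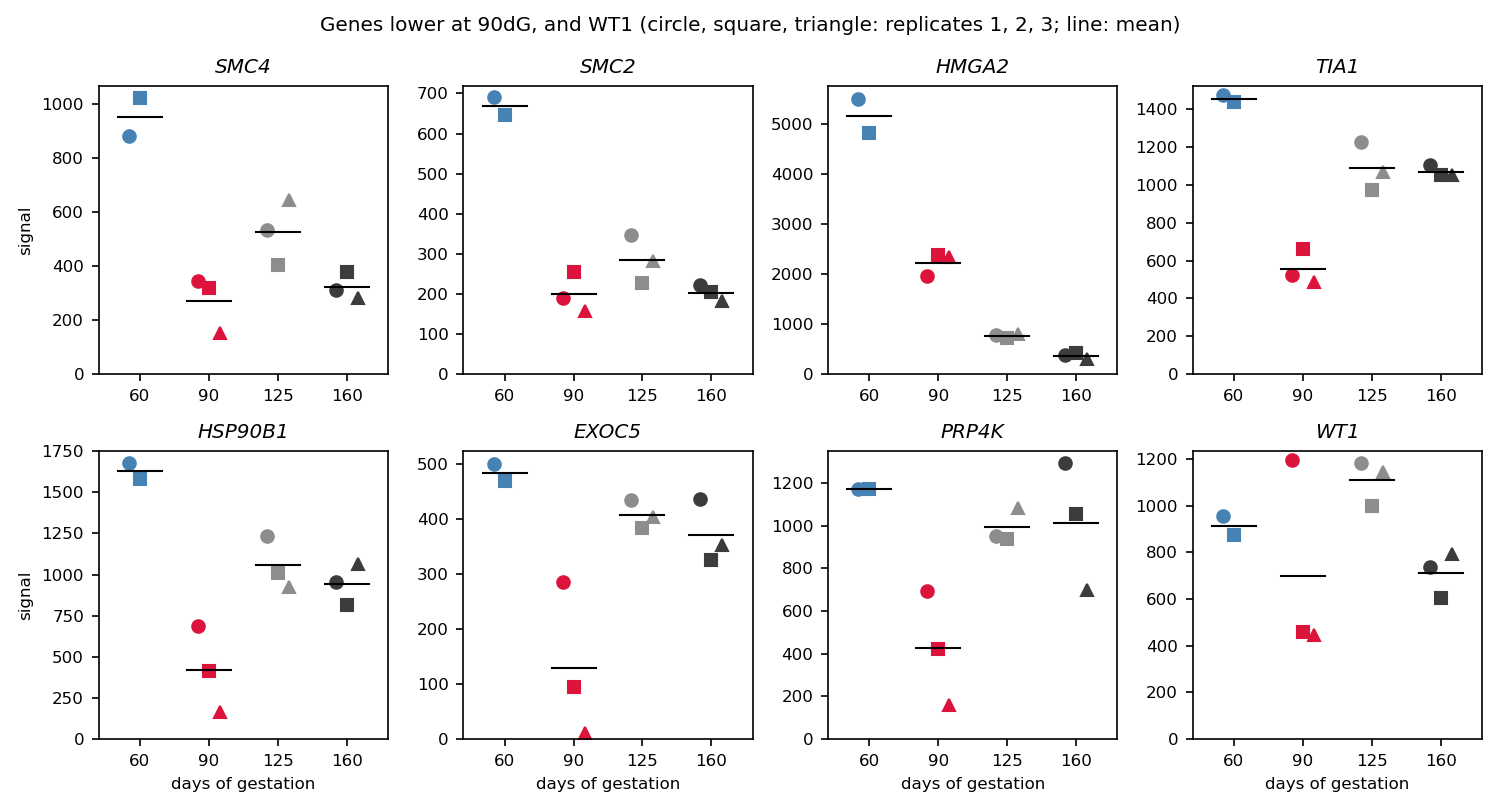
Signal (y axis, linear from 0) at 60, 90, 125 and 160 days of gestation (x axis) of SMC4, SMC2, HMGA2, TIA1, HSP90B1, EXOC5, PRP4K and WT1. Each point is an array, with shape marking the replicate number, and the line is the stage mean. SMC2, HMGA2 and TIA1 are low on all 3 90dG arrays, whereas EXOC5 and PRP4K go from the array of usual ratio (circle) down to the array of highest ratio (triangle), and within 90dG the WT1 signal is low on the square and the triangle only.

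A coefficient for the GAPDH ratio, tested within stages over the 11 fetal arrays, was called in 66 of 5278 genes (1.25%), 19 positive and 47 negative. The ACTB ratio in its place gave 2 called coefficients, and the spike-in mean 59. The coefficient of the GAPDH ratio rests on few arrays: leaving out 90dG replicate 1 or replicate 3 left none called, with 361 and 475 genes at an unadjusted p below 0.05 in limma, against 713 with all arrays. Among the genes called between the stages, 6 had a called coefficient in the direction of their change. SEPTIN9, a cytoskeletal GTPase, was the only one of them among the 292 higher, with 2649 and 1565 at 60dG and 2973, 4941 and 6158 at 90dG (1.13 ± 0.33, adjusted p = 0.0477; 0.49 with the covariate). EXOC5, PRP4K, BLTP1, BUB3 and SRSF1 were those among the 189 lower.

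EXOC5, a subunit of the exocyst that tethers vesicles to the membrane, showed the strongest such tie. It had 499 and 469 at 60dG and 285, 94.4 and 10.4 at 90dG, which made it the largest fall of all (-2.38 ± 0.64, adjusted p = 0.0337), with a coefficient of -3.14 ± 0.46 per log2 unit of the ratio (adjusted p = 0.017). With the covariate its difference was -0.98 (adjusted p = 0.143), with replicate 1 alone -0.73 (adjusted p = 0.139), and its means were 407 ± 25.9 and 371 ± 58.0 (SD, n = 3) at 125dG and 160dG. PRP4K, a kinase of the spliceosome, had 1172 and 1172 at 60dG and 695, 423 and 158 at 90dG (-1.65 ± 0.42, adjusted p = 0.0266), -0.75 with the covariate and -0.74 with replicate 1 alone. Its 2 other probe sets gave -0.36 and -0.19. BUB3, a spindle checkpoint protein counted among the 8 mitosis genes, had 1703 and 1447 against 1315, 651 and 460, and its difference of -1.08 ± 0.31 (adjusted p = 0.0417) was -0.47 with the covariate and -0.25 with replicate 1 alone. In all 3 genes replicate 1 lay below both 60dG arrays, as in all 189 genes called lower, and replicates 2 and 3 lay further down.

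PEX5, the import receptor of peroxisomes, and DDAH1, an enzyme that breaks down methylated arginines, also had large positive coefficients, as EGR1 did, without a call of the coefficient. PEX5 had 111 and 47.5 at 60dG and 245, 354 and 491 at 90dG, and its difference went from 2.02 ± 0.54 (adjusted p = 0.0331) to 1.39 with the covariate. DDAH1 had 380 and 359 at 60dG and 484, 1295 and 1220 at 90dG, from 1.28 ± 0.32 (adjusted p = 0.0261) to 0.77 with the covariate and 0.38 with replicate 1 alone. NEFH, a neurofilament chain and the 1 of 4 tested neural markers that was called, had 107 and 68.8 against 150, 244 and 335 (1.28 ± 0.36, adjusted p = 0.0399; 0.72 with the covariate). Each lost its call in both checks of the ratio.

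The medians of a list on the 3 90dG arrays are all differences from the same 60dG mean, so they are alike in part by construction and are given as a description. Among lists with at least 10 tested genes, apical transport and proximal tubule enzymes had the highest median on each array and the mitosis list the lowest. ER chaperones, early nephron genes and metallothioneins had medians on either side of 0. The counts that follow stand beside 5.53% higher and 3.58% lower over all tested genes, and 2.46% higher with the covariate. With the covariate 2 cytosolic ribosomal protein genes rose and no oxidative phosphorylation gene was called. Oxidative phosphorylation genes (3 of 52 higher, none lower, median 0.15) and cytosolic ribosomal proteins (5 of 52 higher, none lower, median 0.19) had no call without 60dG replicate 1. Of 37 genes of the hypoxia response and glycolysis 3 rose and none fell; 1 rose without 60dG replicate 1, 2 rose and 1 fell with the covariate, and 0 without 60dG replicate 2 or with replicate 1 alone. Of 22 of claudins and junctions 2 rose and none fell; 0 rose without 60dG replicate 1, 1 without 60dG replicate 2, 1 with replicate 1 alone and 2 with the covariate. None of 12 metallothioneins was called, and 0 had an unadjusted p below 0.05 in limma. MT1H, one of them, had 72.8 and 1003 on the 60dG arrays and 372, 755 and 273 at 90dG, so that the 60dG arrays lay on either side of all 3.

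**Figure D5:**
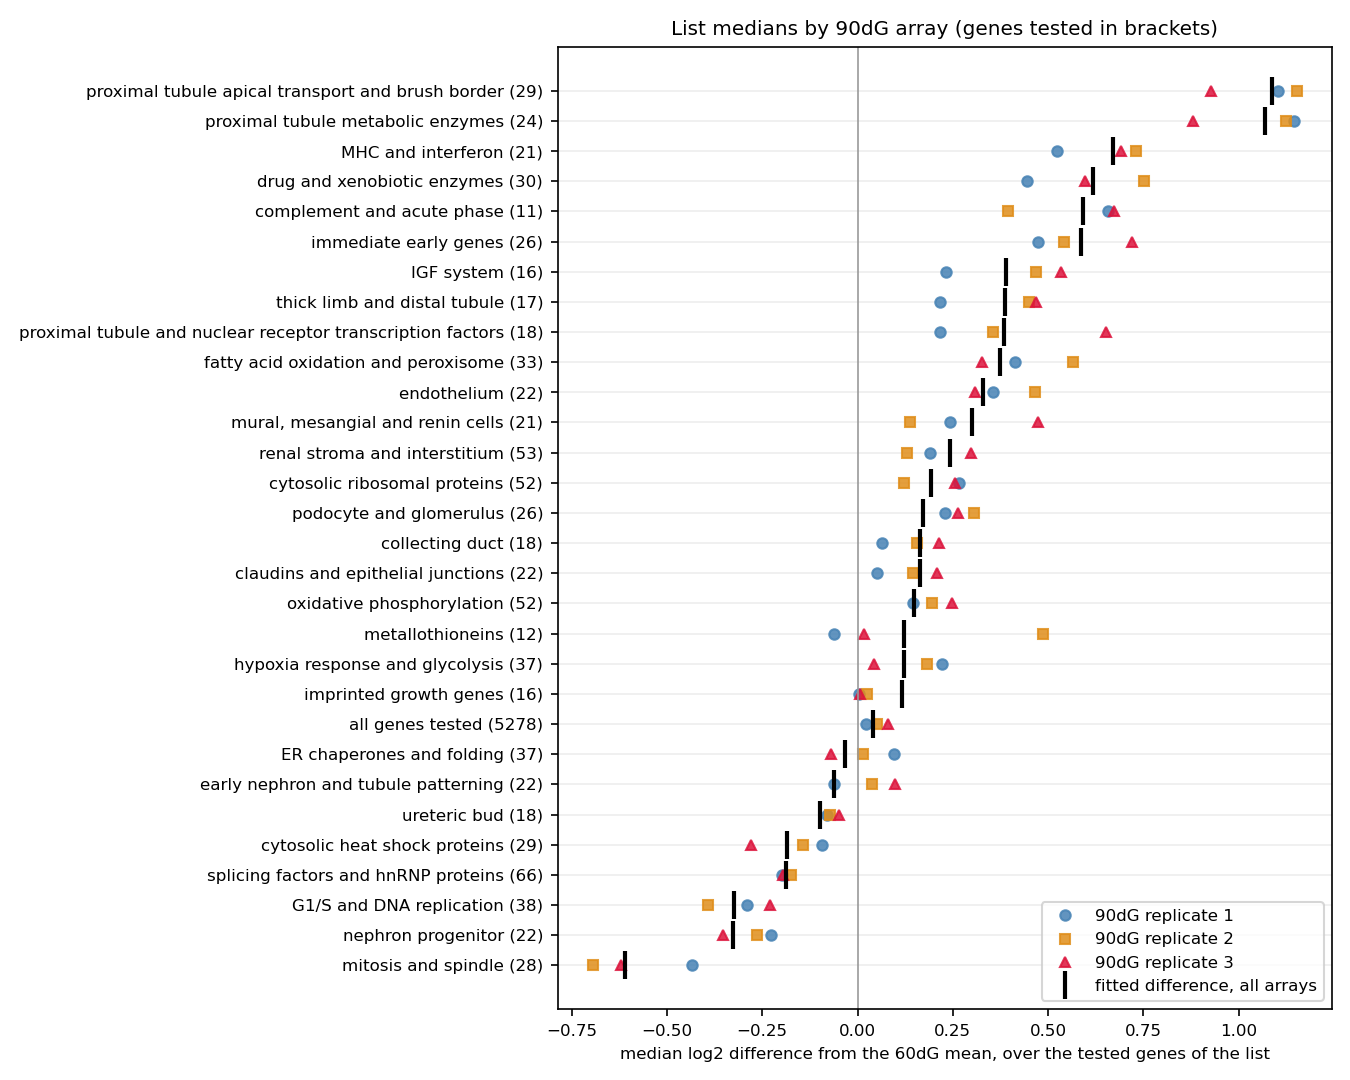
Median log2 difference from the 60dG mean (x axis) over the tested genes of each list with at least 10 such genes (y axis, number in brackets), for 90dG replicates 1, 2 and 3 (points) and for the fit of all arrays (bar). All points subtract the same 60dG mean. Apical transport and proximal tubule enzymes lie at 0.88 or above on the 3 arrays, and mitosis and spindle genes at -0.43 or below.

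Blood and plasma genes had 1 call. None of 7 tested erythroid genes was called by limma, with 1 at an unadjusted p below 0.05, and HBE1, the embryonic beta-like globin, had 1127 and 2500 at 60dG and 2221, 1144 and 1633 at 90dG (-0.06 ± 0.36, adjusted p = 0.93). Of 5 tested fetal plasma protein genes APOA1 rose (1.15 ± 0.30, adjusted p = 0.0315). The call of APOA1 was lost without 60dG replicate 1 (0.60) and in both checks of the ratio. Its difference was 1.12 with the covariate and 1.01 with replicate 1 alone. AFP, the fetal albumin relative, had 1542 and 3099 at 60dG and 3724, 3637 and 3263 at 90dG without a call (0.69 ± 0.44, adjusted p = 0.344). In both HBE1 and AFP the 60dG arrays lay well apart, with the higher value on replicate 2. None of the liver or skeletal muscle markers on the array (12 and 18 genes) passed the filter; their summed signals were 717 and 945 at 60dG and 855 to 946 at 90dG for liver, and 900 and 1129 against 1329 to 1489 for muscle. No gene was called among 2 adipocyte, 1 gonad and 1 urothelium marker tested, and 0 had an unadjusted p below 0.05 in limma.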

How the data were processed

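The authors deposited 1 table of probe set signal intensity for the 11 fetal arrays, which the submitters' processing notes credit to GCOS, with no version or setting in the sources used here. The 2% trimmed means of the deposited intensities differed by at most a factor of 1.023 between arrays, and no further scaling was applied. Adult arrays are of another type and were not used here.

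Of 16186 probe sets, 43 are controls, 14068 carry 1 gene symbol and 735 several in the platform annotation. One probe set a gene was kept, that with the highest mean; genes with a mean log2(signal + 16) above 7.60 were tested (5278 of 9580). Because the mean is taken over all fetal stages, a gene present at 60dG alone can fail this filter. limma 3.58.1 in R 4.3.3 fitted stage means to all 11 fetal arrays (7 residual degrees of freedom), with a mean-variance trend and Benjamini-Hochberg adjustment over all genes tested, two-sided. Pseudocounts, filters, normalization, weights, a replicate block, probe set choice, each left-out array and 3 covariates were tried as alternatives. The procedure was tested on simulated data.

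The named genes hold the 10 largest called rises and falls, and the 10 largest of each that passed both checks of the 3'/5' ratio. Added to them were at most 4 called genes per list and a selection of kidney genes. The 5 called genes per direction with the largest coefficients for the ratio completed the set. The text describes only part of it. Left out of the largest falls were SCYL2 (-1.62 at 90dG, -0.12 at 125dG, both minus 60dG), YAF2 (-1.61, -0.12) and LIN7C (-1.55, 0.16). Falls that passed both checks but were left out are WASHC4 (-1.40, 0.07), CHD1 (-1.29, -0.30) and NKTR (-1.23, 0.02). Any gene in the text from outside the set was picked with its values in view. The members and lists were chosen with earlier results of these data known.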

Additional observations from a re-analysis of the deposited data

How the results depend on the processing

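The number of 60dG and 90dG arrays limits every count. Leaving out 1 array gave 81 to 581 called genes against 481, with 68 to 310 higher and 13 to 271 lower; the low ends came without 60dG replicate 1 and the high ends without 90dG replicate 1. Calls fell to 221 (157 higher, 64 lower) with only the 60dG and 90dG arrays in the fit, to 94 (43 and 51) with 90dG replicate 1 alone, and to 217 (130 and 87) with the GAPDH covariate; the cause was not tested. The higher share was 60.7% in the fit of all arrays, 71% with only the 60dG and 90dG arrays, 84% and 71.3% without 60dG replicates 1 and 2, and 45.7% with 90dG replicate 1 alone. With the spike-in covariate 520 genes were called, 51.7% of them higher. Same-numbered arrays of different stages did not deviate together (correlations of their deviations from -0.114 to 0.179), so the labels' numbers were not taken as pairs. The replicate block lowered the falls to 122 and testing all probe sets raised them to 349, with higher shares of 64% and 51.2%; the cause was not tested. Genes with a coefficient for the GAPDH ratio numbered 0 to 55 on leaving out 1 array, 35 with no filter, 7 with array weights, 0 with the replicate block (620 at an unadjusted p below 0.05), 172 over all probe sets and 120 with the probe set of largest spread. That last choice also turned the difference of PAX8 to -0.73, of SMTN to -0.37 and of STC1 to -0.32. Pseudocounts of 1 and 64, quantile normalization, other filters, eBayes without a trend and array weights gave 355 to 668 calls. Of the 110 named genes that were called, 31 kept their call without 60dG replicate 1, 49 without 60dG replicate 2, 31 with 90dG replicate 1 alone and 54 with the GAPDH covariate.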

Other observations

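The 47 genes called whichever of the 5 arrays was left out include 4 lysosomal proteins of no list, picked here with their values in view. CTSH, a lysosomal aminopeptidase, had signals of 152 and 113 at 60dG and 548, 564 and 535 at 90dG (1.94, limma adjusted p = 0.000215), and CTSL, a lysosomal endopeptidase, had 437 and 384 against 922, 953 and 733 (1.05, limma adjusted p = 0.00377). PSAP, the precursor of the saposins, had 1125 and 909 against 2110, 3942 and 4943 (1.76, limma adjusted p = 0.00496), and NPC2, a lysosomal cholesterol carrier, had 1388 and 1263 against 2572, 2446 and 2646 (0.94, limma adjusted p = 0.00451). CTSH and CTSL were also called in both checks of the 3'/5' ratio, whereas PSAP and NPC2 were not called with 90dG replicate 1 alone, the array on which PSAP was lowest of the 3.

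Signalling and matrix genes outside the lists were called in every check too. SERPINF1, a secreted inhibitor of vessel growth, had 625 and 517 at 60dG and 1391, 1627 and 1803 at 90dG (1.47, limma adjusted p = 0.000733). ERBB3, a neuregulin receptor, had 667 and 619 against 1516, 1322 and 1585 (1.17, limma adjusted p = 0.00272), and ANK2, an adaptor of the membrane skeleton, had 443 and 351 against 922, 950 and 838 (1.16, limma adjusted p = 0.00178), although its other probe set gave 0.07. Among the falls, SREK1, a splicing regulator, had 1357 and 1211 against 587, 649 and 523 (-1.11, limma adjusted p = 0.00333). In each of these genes the 3 90dG arrays lay clear of 60dG, as in every called gene. Their close 90dG values are favoured by the choice of genes that passed every check.

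The subset of 47 genes was set by the 60dG arrays: the 38 rises and 9 falls called without each of the 5 arrays were as many as those called without each of the 60dG arrays. Between both 60dG arrays, 6 genes were higher on replicate 2 by more than 3 on the log2 scale (CYP17A1, STAR, RPS4Y1, CYP11A1, GSTA3 and MT1H) and 1 on replicate 1 (XIST). FDX1, the ferredoxin that passes electrons to mitochondrial steroid hydroxylases, was tested without a call and had 206 on 60dG replicate 1, 1245 on replicate 2 and 313, 255 and 313 at 90dG. Probe sets whose name marks that they can bind several transcripts made up 51.5% of the genes tested, 40.8% of those called higher and 70.4% of those called lower, and no cause of that gap was tested.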
